A study of Mus musculus with 18 samples.

Results

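The 10 genes described here are the AP-1 subunits Fos, Fosb, Fosl1, Fosl2, Jun, Junb and Jund, and the immediate early genes Egr1, Atf3 and Ier3. They were taken by name from the expression table of a mouse small intestinal organoid study and are 10 of its 55414 genes. Their levels were measured by polyA RNA sequencing in 18 libraries, 3 biological replicates in each of 6 groups, all from C57BL/6J WT mice and all harvested on day 6 of culture. Crypt-derived organoids were grown in Matrigel under ENR medium (EGF, Noggin and R-spondin 1), either untreated (MG_Control) or with 40 µM 5-fluorouracil added from day 4 (MG_5FU). Crypt-derived organoids were also grown in collagen type I under ENRW medium, untreated (COL_Control) or with the same dose over the same days (COL_5FU), and in collagen under 25% cWRNE medium without 5-fluorouracil (COL_cWRNE). Villus-derived cultures (VIL) came from villi scraped within 3 cm of the pylorus and were grown in collagen under 25% cWRNE medium. The design asks how the matrix changes the response to a chemotherapeutic stress, and how villus-derived cultures compare with crypt-derived ones. Matrix and medium changed together between the Matrigel and collagen groups, so the effects of collagen and of ENRW cannot be told apart.

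AP-1 is a dimer of basic leucine zipper proteins: a Fos family protein needs a Jun family partner to bind DNA, while Jun proteins also pair with each other and with relatives such as Atf3. Immediate early genes such as Fos and Egr1 are transcribed within minutes of growth factor, stress or mechanical signals, from factors already present in the cell, and their RNA is short-lived. In the intestine AP-1 is known from studies of proliferation, wound repair and villus tip programmes. 5-fluorouracil (5-FU) is a pyrimidine analogue that disturbs DNA and RNA synthesis and activates p53.

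Promoter windows from RefSeq, running from 250 bases before to 50 bases after the start site on GRCm38.p6, were matched for 8 of the 10 genes; Egr1 and Fosl1 are named only. The last 100 bases before the start sites of Fos, Jun and Atf3 are printed because these 3 genes carry the best-known short regulatory motifs of the group near their start and differ in how they moved here. Capitals mark TGACGT and TATAAA in Fos (chr12:85473790-85473889, plus strand), TGACATCA in Jun (chr4:95052223-95052322, minus strand) and TTACGTCA in Atf3 (chr1:191183334-191183433, minus strand), each read 5′ to 3′ along the gene.
Fos: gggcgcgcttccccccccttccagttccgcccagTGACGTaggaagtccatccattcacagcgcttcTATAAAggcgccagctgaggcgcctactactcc
Jun: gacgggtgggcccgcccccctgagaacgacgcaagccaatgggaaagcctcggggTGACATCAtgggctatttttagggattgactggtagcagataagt
Atf3: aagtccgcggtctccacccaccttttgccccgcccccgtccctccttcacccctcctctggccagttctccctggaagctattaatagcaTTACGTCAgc

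Both strands were searched for 9 motifs, in the 8 windows and in 32851 promoter windows of the same length. TGACGT, the core of the cAMP response element, began at -66 in Fos and lay at -8 on the opposite strand in Atf3, where it overlaps TTACGTCA. It occurred in 7.51% of all windows. TGACATCA, the AP-1-like site of the Jun promoter, began at -45 in Jun and occurred in 3.62% of all windows. TTACGTCA began at -10 in Atf3 and occurred in 0.499% of all windows. TATAAA was found in Fos at -33 and in Junb at 1 (13.6% of all windows), and CCAAT in Jun, Junb, Atf3 and Ier3 (37.4%). The Egr-type site GCGNGGGCG was found in Fosb and Fosl2 (5.55%). The AP-1 site TGANTCA (7.81%), the full cAMP response element TGACGTCA (1.79%) and the CArG box (1.63%) had no match in the 8 windows. Sites farther upstream, and any site of Egr1 or Fosl1, lay outside this search, so their absence from these promoters is not shown. These matches describe letters and were not tied to binding in these cultures.

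Library totals ran from 22280427 to 34480406 estimated counts. All 8 epithelial markers were detected in every library. The 8 p53 targets checked (Cdkn1a and Mdm2 among them) rose with 5-FU in both matrices, and 7 of them were already higher in untreated collagen than in untreated Matrigel. Libraries with replicate number 2 held Y-linked counts and little or no Xist, and the other libraries held Xist; COL_Control replicate 3 held both, with 738 counts over 4 Y-linked genes beside 4893 for Xist. The label does not account for that mixture, so for the genes described here the calls that use COL_Control are also given without that library. Group means, and the results for p53 targets, markers and the other gene lists that use COL_Control, are given only with that library included. VIL replicates 2 and 3 held mesenchymal markers at a summed 737 and 722 CPM and VIL replicate 1 at 50.7 CPM, against 0.666 to 14.0 CPM in the crypt-derived libraries. In bulk RNA, a change in the share of cells of a type and a change in RNA per cell cannot be told apart. Levels below are CPM, the counts of a gene scaled to the TMM-adjusted library size; levels of different genes are set side by side only in TPM, the deposited unit that also divides by transcript length. A gene is said to have risen or fallen where edgeR's quasi-likelihood test gave a Benjamini-Hochberg adjusted p under 0.05 over all genes tested, and log2 fold changes are given ± their standard error (SE).

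Untreated organoids in Matrigel had the lowest mean level of each of the 10 genes, and collagen with 5-FU had the highest mean of 8 of them. The exceptions at the top were Jun, highest in COL_cWRNE, and Fosl2, highest in VIL. The ratio of the highest to the lowest group mean was 146 for Fosb, 49.4 for Fosl1, 39.0 for Fos and 28.0 for Egr1. It was 2.4 for Jund, 2.5 for Fosl2 and 3.2 for Jun, so the genes of the AP-1 families spread widely in how much they varied. Per length, Jund was the most abundant of the 10 in untreated Matrigel organoids at 143 ± 12.1 TPM (SD, n = 3), followed by Jun at 56.6 ± 12.4 TPM. Fos stood at 17.0 ± 3.66 TPM there, Egr1 at 9.72 ± 1.25 TPM and Fosb at 0.05 ± 0.054 TPM. In collagen with 5-FU the order was led by Fos at 676 ± 45.4 TPM and Ier3 at 522 ± 112 TPM, and Jund was at 343 ± 22.8 TPM.

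**Figure D1:**
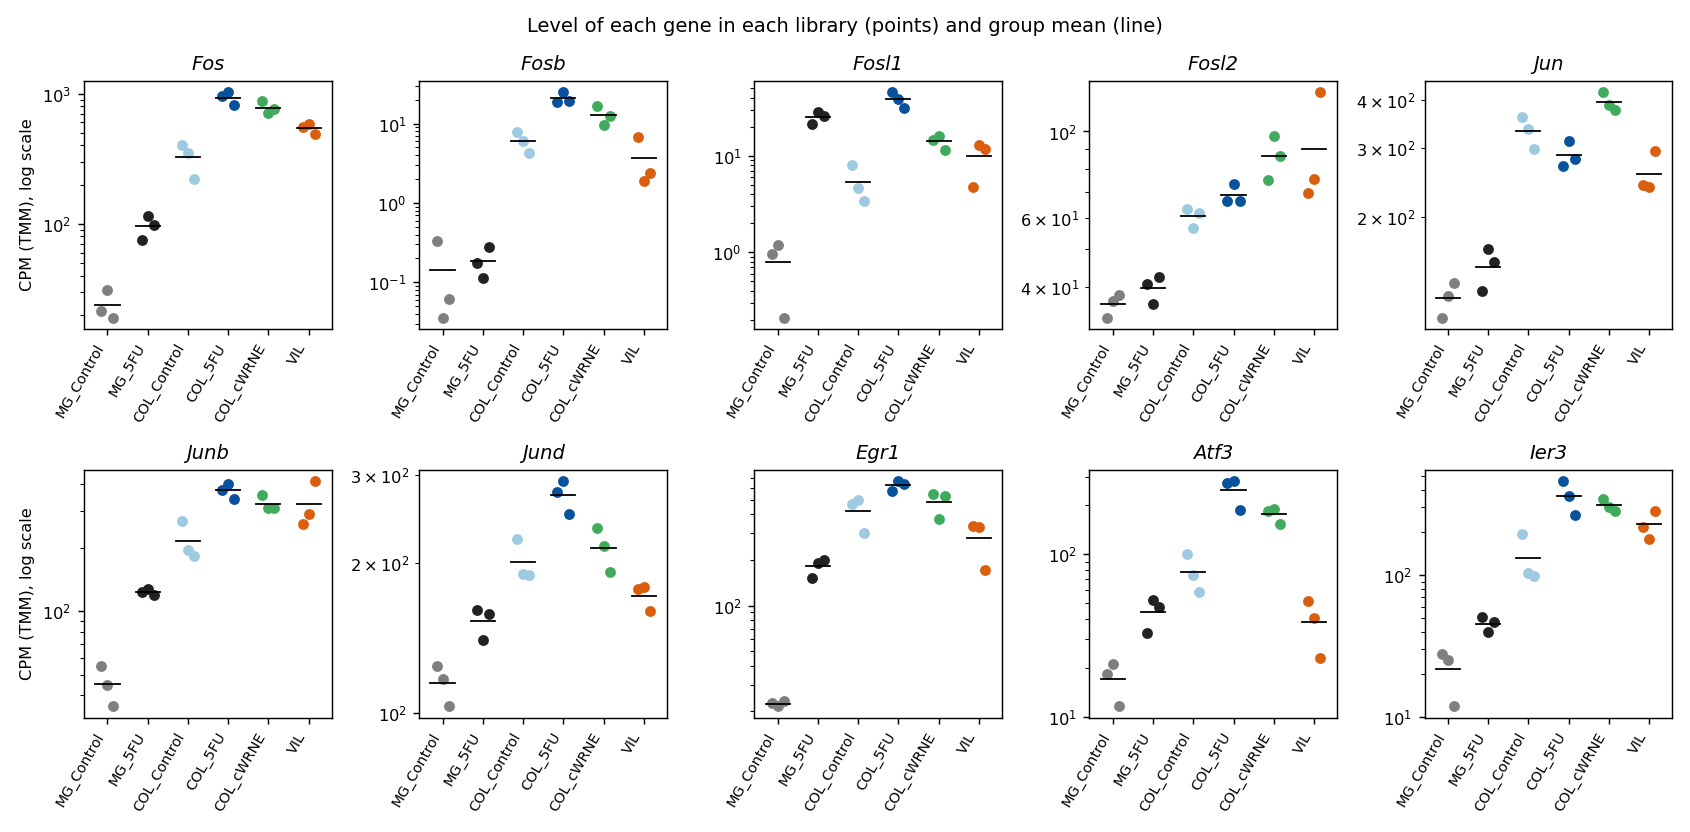
Level of each gene in CPM (log scale) in each library, 1 panel per gene, with the 6 groups along the horizontal axis; points are libraries and lines are group means (n = 3). MG is Matrigel, COL collagen, VIL villus-derived. The Fos points climb from 19.0 to 31.3 CPM in MG_Control to 821 to 1023 CPM in COL_5FU, while Fosl2 stays between 33.3 and 126 CPM throughout.

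Among the Fos family, Fos itself is the founding subunit and a classic early response gene. Its order of group means was MG_Control, MG_5FU, COL_Control, VIL, COL_cWRNE and COL_5FU, and of these neighbours only COL_cWRNE and COL_5FU overlapped in their libraries. Fosb, a close relative, was at 9, 1 and 2 counts in the MG_Control libraries and 5, 3 and 6 in the MG_5FU libraries, against 119 to 247 in COL_Control and 505 to 700 in COL_5FU. It stayed under 10 counts in every Matrigel library and was well above that in every collagen library. Fosl1 encodes Fra-1, a subunit known from invasive and wound-edge epithelium, and it had a different order: MG_5FU at 25.0 ± 3.58 CPM (SD, n = 3) stood above COL_cWRNE at 14.1 ± 2.28 CPM and COL_Control at 5.33 ± 2.42 CPM. Fosl2 encodes Fra-2 and varied little, from a mean of 36.1 CPM in MG_Control to 90.3 CPM in VIL with 1 VIL library at 126 CPM.

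In the Jun family, Jun is the main partner of Fos, Junb is a weaker activator that competes with Jun, and Jund is the constitutively expressed member. Jun ran from 123 ± 12.7 CPM (SD, n = 3) in MG_Control to 394 ± 21.5 CPM in COL_cWRNE. MG_Control overlapped with MG_5FU, and COL_5FU overlapped with both VIL and COL_Control. Junb ran from 45.1 ± 9.97 CPM in MG_Control to 373 ± 29.9 CPM in COL_5FU, and COL_Control, VIL, COL_cWRNE and COL_5FU formed a chain of overlapping neighbours. Jund ran from 114 ± 10.6 to 274 ± 21.0 CPM between the same groups. Estimated counts of Jun and Fosl1 were whole numbers in 0 of 18 libraries, those of Jund in 1 and those of Junb in 5. How reads shared with other features were divided is not given in the sources used here, so the levels of these 4 genes carry that uncertainty.

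Summed over the Fos family, TPM was 25.2 ± 4.61 (SD, n = 3) in MG_Control, 79.9 ± 19.7 in MG_5FU, 286 ± 82.3 in COL_Control and 730 ± 48.4 in COL_5FU. The Jun family sum ran from 243 ± 21.3 to 839 ± 59.6 TPM between MG_Control and COL_5FU. Fos family TPM per Jun family TPM was 0.104 ± 0.0192 in MG_Control, 0.252 ± 0.0416 in MG_5FU, 0.439 ± 0.104 in COL_Control and 0.872 ± 0.0395 in COL_5FU. Jun family RNA exceeded Fos family RNA in the mean of every group, least so in collagen with 5-FU. The makeup of each family also differed between groups. Fosl1 made up 3.53 ± 2.92% of Fos family TPM in MG_Control and 21.9 ± 1.63% in MG_5FU, but 2.22 ± 0.67% in COL_Control and 4.44 ± 0.6% in COL_5FU. Fos itself held 67.3 ± 3.19% in MG_Control and 91.8 ± 2.03% in COL_Control. Within the Jun family, Jund held 59.0 ± 0.464% in MG_Control and 40.3 ± 2.44% in COL_Control, while Junb held 17.8 ± 2.88% and 33.9 ± 2.82%. These shares are descriptions, with no test.

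**Figure D2:**
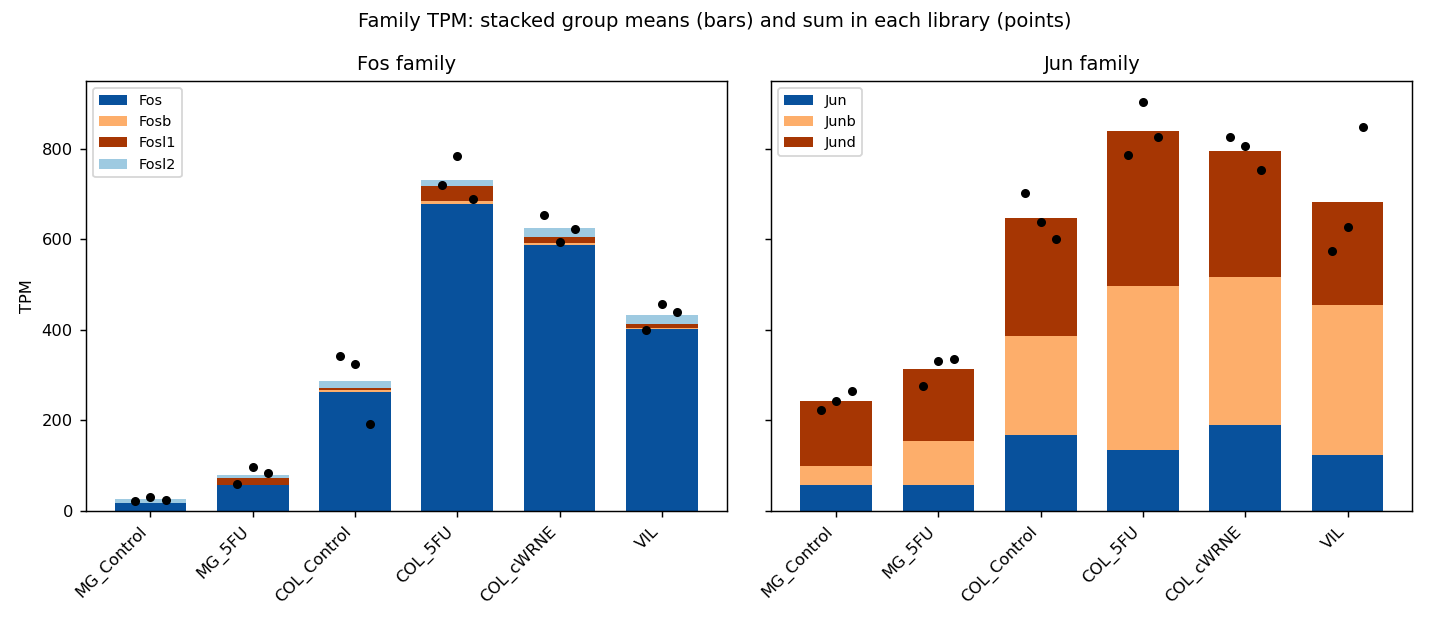
Summed TPM of the Fos family (left) and the Jun family (right) in each of the 6 groups; stacked bars are group means of each gene (n = 3), and points are the sums in single libraries. Fos fills most of the Fos family bar in the collagen groups, and the Fosl1 segment is widest relative to its bar in MG_5FU, at 21.9%.

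Collagen against Matrigel without treatment gave higher levels of 10 of the 10 genes, where 31.2% of the 16611 genes tested were called and 15.8% were called higher. Their median log2 difference was 2.43, against 0.04 over all genes tested. Egr1, a zinc finger factor induced through ERK and SRF, was at 22.5, 21.5 and 23.2 CPM in MG_Control and 467, 501 and 302 CPM in COL_Control. The Matrigel libraries lay within a narrow band, and the lowest collagen library was COL_Control replicate 3. The log2 difference was 4.23 ± 0.19, 18.8-fold (edgeR adjusted p = 2.18e-08). Fos was at 21.5, 31.3 and 19.0 CPM in MG_Control and 403, 348 and 219 CPM in COL_Control, with no overlap, and its log2 difference was 3.75 ± 0.25 (edgeR adjusted p = 2.77e-07).

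Fosb had the largest fitted log2 difference in this comparison, 5.41 ± 0.50 (edgeR adjusted p = 3.63e-06). Its size rests on few counts: without MG_Control replicate 1, which held 9 of the 12 counts of its group, it was 6.81. Fosl1 was 2.80 ± 0.43 higher, on 66.1 estimated counts over the MG_Control group. The Jun family differed less than Fos: Junb by 2.25 ± 0.16, Jun by 1.42 ± 0.12 and Jund by 0.81 ± 0.10. Among the others, Ier3, an early gene linked to survival signalling, was 2.60 ± 0.32 higher and Atf3, a stress-induced partner of Jun, 2.19 ± 0.26 higher. Fosl2 was 0.74 ± 0.10 higher. The 10 calls stood under each of the 15 alternatives run, and without COL_Control replicate 3 the values were 4.42 for Egr1, 3.96 for Fos and 0.72 for Fosl2.

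Some heat shock genes moved beside these genes, without a common direction over their list. Hspa1b, a stress-inducible chaperone, was at 9.04 ± 1.68 CPM (SD, n = 3) in MG_Control and 97.7 ± 25.4 CPM in COL_Control, and its near-identical copy Hspa1a was 3.89 ± 0.25 higher on the log2 scale. Of the 11 heat shock genes measured, 3 were higher in untreated collagen (Hspa1a, Hspa1b and Hspb1) and 3 were lower, the mitochondrial chaperone Hspd1 among them. Over all genes tested, 15.8% were higher and 15.4% lower. The median log2 difference of the 11 was 0.19, against 0.04 over all genes tested. How the organoids were released from each matrix before lysis is not given in the sources used here. The part of that step, and of the heat shock change, in the levels of Fos, Egr1 and the others was not tested.

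5-FU in Matrigel was followed by higher levels of 7 of the 10 genes and lower levels of 0, where 30.9% of the genes tested were called and 19.2% were called higher. The median log2 change of the 10 was 1.28, against 0.06 over all genes tested. Fosl1 changed most: it was at 0.954, 1.19 and 0.209 CPM untreated and at 21.1, 28.1 and 25.9 CPM with 5-FU. The treated libraries stood far above the untreated ones, and the log2 change was 5.09 ± 0.44, 34-fold (edgeR adjusted p = 2.01e-06). Its size rests on few untreated counts, 26.1, 33.2 and 6.9 in the MG_Control libraries, and it ran from 4.62 to 5.54 with a library left out. Egr1 went from 22.5, 21.5 and 23.2 CPM to 153, 192 and 201 CPM, a log2 change of 3.08 ± 0.18 (edgeR adjusted p = 5.67e-08). Fos went from 19.0 to 31.3 CPM untreated to 75.1, 114 and 97.6 CPM, a log2 change of 2.06 ± 0.24 (edgeR adjusted p = 2.10e-05).

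The remaining risers in Matrigel were smaller. Junb rose by 1.51 ± 0.16, with all treated libraries between 119 and 127 CPM against 35.4 to 55.3 CPM untreated. Atf3 rose by 1.43 ± 0.25 and Ier3 by 1.14 ± 0.31 on the log2 scale. Jund rose by 0.48 ± 0.10 (edgeR adjusted p = 0.00224), a call that ended on the deposited TPM, where limma gave 0.15 (adjusted p = 0.24). Jun had a log2 change of 0.33 ± 0.12 (edgeR adjusted p = 0.0572), which passed with the replicate number as a block (0.33, edgeR adjusted p = 0.043). Fosl2, at 0.19 ± 0.10 (edgeR adjusted p = 0.19), and Fosb, at 0.46 ± 0.67 on 12 untreated and 14 treated counts per group (edgeR adjusted p = 0.654), did not pass. Without MG_Control replicate 1 the Fosb value was 1.85. Hspa1a also rose here, by 2.10 ± 0.24, and Hspa1b by 2.09 ± 0.19. Of the 11 heat shock genes measured, 3 rose and 3 fell, where 19.2% of all genes tested rose and 11.7% fell. Of the 4 immune markers tested, 2 rose: the 8 markers summed to 4.78 to 13.8 CPM untreated and 17.2 to 23.5 CPM with 5-FU, where Cd3e and Adgre1 were at 0. The 10 mesenchymal markers summed to 5.41 to 6.04 CPM untreated and 8.62 to 14.0 CPM with 5-FU, with 0 of the 2 tested called. The 5 markers of enteric glia and neurons summed to 1.4 to 2.58 CPM and 4.19 to 5.79 CPM, and 1 of the 2 tested rose, Tubb3 (1.86 ± 0.43). The part of all these markers' cells in the 5-FU values was not tested.

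5-FU in collagen was followed by higher levels of 8 of the 10 genes and lower levels of 0, where 35.3% of the genes tested were called and 18.6% were called higher. The median log2 change of the 10 was 1.09, against -0.03 over all genes tested. Fos was at 403, 348 and 219 CPM untreated and at 952, 1023 and 821 CPM with 5-FU. The groups did not overlap, and the log2 change was 1.50 ± 0.23 (edgeR adjusted p = 2.27e-04). Fosl1 went from 8.04, 4.59 and 3.36 CPM to 45.5, 39.1 and 31.6 CPM, a change of 2.82 ± 0.37 (edgeR adjusted p = 7.23e-05). Fosb, countable in collagen, went from 7.86, 5.95 and 4.31 CPM to 18.7, 24.8 and 19.0 CPM, a change of 1.75 ± 0.36 (edgeR adjusted p = 0.0019). All 3 rose from a collagen baseline that was itself above the untreated Matrigel level.

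Atf3 was at 100, 75.0 and 58.5 CPM in untreated collagen and at 275, 282 and 187 CPM with 5-FU, and rose by 1.64 ± 0.25 (edgeR adjusted p = 2.12e-04). Ier3 rose by 1.43 ± 0.30, Junb by 0.76 ± 0.15 and Jund by 0.42 ± 0.10. Egr1 rose by 0.53 ± 0.16 (edgeR adjusted p = 0.0196), from 467, 501 and 302 CPM to 574, 666 and 641 CPM. That call was the least firm of the 8: the edgeR adjusted p was 0.0636 without COL_Control replicate 3 (log2 change 0.34) and 0.0648 without COL_5FU replicate 2 (0.50). It also ended on unscaled library totals (0.42), on the deposited TPM (0.44) and in a fit of all 18 libraries (0.57). Fosl2, at 0.14 ± 0.10 (edgeR adjusted p = 0.297), did not pass. Jun, at -0.24 ± 0.12 (edgeR adjusted p = 0.153), did not pass either, but was called lower on unscaled totals (-0.34, edgeR adjusted p = 0.0348) and with a stricter filter on low counts (-0.28, edgeR adjusted p = 0.0449). Without COL_Control replicate 3, 7 of the 10 genes were called. Hspa1a (0.23 ± 0.21) and Hspa1b (0.31 ± 0.17), named here after their values were seen, did not pass in collagen. Of the 11 heat shock genes measured, 2 rose and 3 fell, where 18.6% of all genes tested rose and 16.7% fell. Of the 4 immune markers tested, Cd68 was higher with 5-FU (1.30 ± 0.34) and Itgam and Lyz2 were lower. The 8 immune markers summed to 11.1 to 17.7 CPM untreated and 21.0 to 35.1 CPM with 5-FU, with Ptprc and Adgre1 at 0 in both. The endothelial marker Tek was higher (4.10 ± 1.16, edgeR adjusted p = 0.014); the 4 endothelial markers summed to 0.0 to 0.778 CPM untreated and 3.98 to 6.17 CPM with 5-FU, with Cdh5 and Kdr at 0 in both. The part of these cells in the 5-FU values was not tested.

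The effect of 5-FU was smaller in collagen than in Matrigel for Egr1, Fosl1 and Junb by the test of the difference itself. These were 3 of the 10 genes, where 8.19% of the genes tested were called, 6.3% lower and 1.88% higher. For Egr1 the collagen effect minus the Matrigel effect was -2.54 ± 0.23 on the log2 scale (edgeR adjusted p = 4.76e-05), and it stood under each of the 20 alternatives run. For Fosl1 it was -2.26 ± 0.55 (edgeR adjusted p = 0.0216), a value that also rests on the 66.1 estimated counts over MG_Control. Leaving out MG_5FU replicate 2 (-2.16), MG_5FU replicate 3 (-2.23) or COL_5FU replicate 2 (-2.26) ended that call, as did the TPM (-1.06) and the fit of all 18 libraries (-2.16). For Junb it was -0.75 ± 0.21 (edgeR adjusted p = 0.0464), and 10 of the 12 fits that left out a library lost it (values from -0.90 to -0.57 over the 12), the exceptions being those without MG_Control replicate 1 and without COL_Control replicate 3. The Junb call was also lost with RLE factors (-0.69, edgeR adjusted p = 0.0701), on unscaled totals (-0.71, edgeR adjusted p = 0.0698), on the TPM (-0.45, limma adjusted p = 0.127) and in the fit of all 18 libraries (-0.66, edgeR adjusted p = 0.203), so that 6 of 20 alternatives called it. Without COL_Control replicate 3 all 3 genes were called.

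For the other genes the difference between matrices did not pass. Its 95% interval on the log2 scale, from the SE and the t distribution, was -1.25 to 0.13 for Fos, -0.54 to 0.96 for Atf3, -0.63 to 1.21 for Ier3 and -0.36 to 0.24 for Jund. Jun had -0.56 ± 0.17 (edgeR adjusted p = 0.0621) and passed in 5 of 20 alternatives, the replicate block among them (-0.57, edgeR adjusted p = 0.0432). Fosb had 1.29 ± 0.78 (edgeR adjusted p = 0.377), 1.32 on the TPM (limma adjusted p = 0.0126) and -0.09 without MG_Control replicate 1. Hspa1a (-1.88 ± 0.32, edgeR adjusted p = 0.00266) and Hspa1b (-1.78 ± 0.25, edgeR adjusted p = 7.47e-04) moved with Egr1 in this test, and their part in its result was not tested. They were the 2 of 11 heat shock genes called, and the median of the 11 was 0.02. The 5-FU effect on p53 targets was smaller in collagen too: 5 of the 8 were called lower and 0 higher by the same test, with a median of -0.89, among them Phlda3 (-1.84 ± 0.24), Zmat3 (-1.72 ± 0.21) and Cdkn1a (-1.03 ± 0.26). The part of that difference in the values of Egr1, Fosl1 and Junb was not tested. This test shares its untreated libraries with the collagen against Matrigel comparison, so a high COL_Control level enters both.

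**Figure D3:**
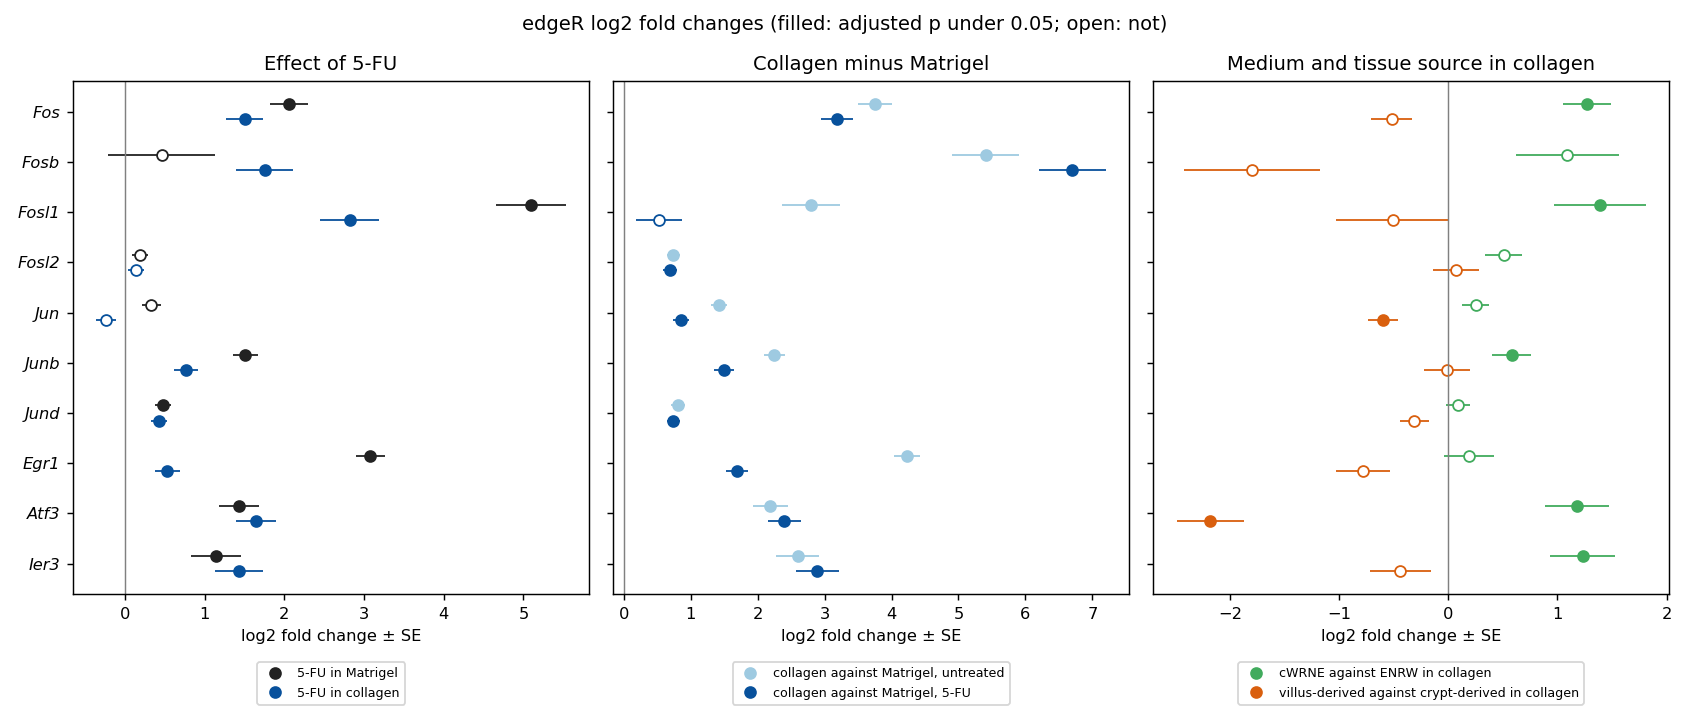
edgeR log2 fold change ± SE of each gene for the effect of 5-FU in each matrix (left), for collagen minus Matrigel with and without 5-FU (middle), and for medium and tissue source in collagen (right); filled points have an adjusted p under 0.05. The left panel shows Egr1 at 3.08 in Matrigel and 0.53 in collagen, and the middle panel shows Fosl1 at 2.80 untreated and 0.53 with 5-FU.

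With 5-FU present in both matrices, 9 of the 10 genes were still higher in collagen, where 35.5% of the genes tested were called and 17% were called higher. The median log2 difference of the 10 was 1.59, against 0.00 over all genes tested. Fosb differed by 6.70 ± 0.50 (edgeR adjusted p = 2.67e-07), on 14 counts over the MG_5FU group. Fos differed by 3.19 ± 0.24, Ier3 by 2.89 ± 0.32 and Atf3 by 2.40 ± 0.25. Egr1, at 153 to 201 CPM in MG_5FU and 574 to 666 CPM in COL_5FU, differed by 1.69 ± 0.17 (edgeR adjusted p = 3.57e-06). Fosl1 was the exception: 21.1 to 28.1 CPM in Matrigel and 31.6 to 45.5 CPM in collagen gave 0.53 ± 0.34 (edgeR adjusted p = 0.255), with a 95% interval of -0.20 to 1.27. It passed in 3 of the 15 alternatives, the TPM among them (0.87, limma adjusted p = 0.0407).

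The medium in collagen was compared between untreated organoids under cWRNE and ENRW. Of the 10 genes, 5 were higher under cWRNE and 0 lower, where 18% of the 17708 genes tested were called, 13.1% higher and 4.85% lower. This comparison shares its COL_Control libraries with the collagen comparisons above. Fos was at 871, 712 and 758 CPM under cWRNE against 403, 348 and 219 CPM under ENRW, and was 1.27 ± 0.22 higher (edgeR adjusted p = 7.76e-04). Fosl1 was 1.39 ± 0.42 higher, Ier3 1.23 ± 0.30, Atf3 1.18 ± 0.29 and Junb 0.58 ± 0.18. Egr1 had 0.19 ± 0.23 (edgeR adjusted p = 0.613), with libraries at 549, 371 and 532 CPM inside and just above the ENRW range. Fosl2 had 0.51 ± 0.17 (edgeR adjusted p = 0.0516), and 0.50 with the replicate number as a block (edgeR adjusted p = 0.0456). Only Fos was called under every one of the 14 alternatives. Without COL_Control replicate 3, Fos was the 1 gene called, and Atf3 (0.99, edgeR adjusted p = 0.0621), Ier3 (1.04, 0.0574), Fosl1 (1.13, 0.134) and Junb (0.45, 0.167) did not pass. Of the 6 immune markers tested, 2 were higher under cWRNE: the 8 markers summed to 50.9 to 68.5 CPM there and 11.1 to 17.7 CPM under ENRW, Ptprc and Adgre1 were at 0 in both, and their part was not tested.

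Villus-derived and crypt-derived cultures under the same matrix and medium differed in 2 of the 10 genes, both lower in VIL, where 7.64% of the 16699 genes tested were called, 1.96% lower and 5.68% higher. Atf3 was at 51.8, 40.5 and 22.9 CPM in VIL and at 184, 190 and 154 CPM in COL_cWRNE. The groups did not overlap, and the log2 difference was -2.18 ± 0.31 (edgeR adjusted p = 0.00458). This call stood in all 16 alternatives. Jun was at 241, 238 and 295 CPM against 418, 387 and 376 CPM, a difference of -0.60 ± 0.14 (edgeR adjusted p = 0.0283). That call ended in 5 of the 6 fits that left out a library, those without COL_cWRNE replicate 1, 2 or 3 and without VIL replicate 1 or 2, with values from -0.60 to -0.51. It also ended on the TPM (-0.62, limma adjusted p = 0.0682) and with the compared groups alone (-0.57, edgeR adjusted p = 0.0706).

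The other members did not pass in this comparison. Egr1 had -0.78 ± 0.25 (edgeR adjusted p = 0.0996) and passed in 4 of 16 alternatives. Fosb had -1.80 ± 0.62 (edgeR adjusted p = 0.123) and passed in 5 of 15, the replicate block among them (-2.03, edgeR adjusted p = 0.0308). Fosb was -2.54 (edgeR adjusted p = 0.0203) without VIL replicate 1, and -0.91 (edgeR adjusted p = 0.473) with that library as the only villus-derived one. Junb stood at -0.01 ± 0.21 with a 95% interval of -0.47 to 0.45, and Fos at -0.52 ± 0.19 (edgeR adjusted p = 0.138). The VIL libraries differed in other cell types: all 10 mesenchymal markers were called higher in VIL than in COL_cWRNE, as were 5 of the 6 immune markers tested. In COL_cWRNE the mesenchymal markers summed to 4.52 to 7.81 CPM, with 6 of the 10 at 0 (Col1a2, Col3a1, Pdgfra, Dcn, Myh11 and Des). The immune markers summed to 929, 2588 and 3902 CPM in VIL replicates 1, 2 and 3 and to 50.9 to 68.5 CPM in COL_cWRNE, where Ptprc and Adgre1 were at 0. With VIL replicate 1, the library lowest in both lists, as the only villus-derived library, Atf3 was -1.74 (edgeR adjusted p = 0.00615) and Jun -0.68 (edgeR adjusted p = 0.0355). In that fit the lone library is assumed to vary like the other groups.

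Against untreated Matrigel organoids, VIL had 10 of the 10 genes higher, where 46.6% of the genes tested were called and 27% were called higher. Fos differed by 4.46 ± 0.22, Fosb by 4.66 ± 0.78, Egr1 by 3.61 ± 0.28 and Ier3 by 3.36 ± 0.31. The Fosb value rests on 12 counts over MG_Control: it was 6.12 without MG_Control replicate 1 and 3.94 without VIL replicate 1. The smallest differences were those of Jund, 0.55 ± 0.13, Jun, 1.03 ± 0.14, and Atf3, 1.14 ± 0.30 (edgeR adjusted p = 0.0129). The 10 calls stood in all 16 alternatives, the fit with VIL replicate 1 alone included. Cell makeup differed here as well: all 10 mesenchymal markers and 6 of the 6 immune markers tested were called higher in VIL. Even VIL replicate 1 held immune markers at a summed 929 CPM, against 4.78 to 13.8 CPM in MG_Control. The part of those cells in the values of the 10 genes was not tested. Tissue source, matrix and medium all differ in this comparison and cannot be told apart.

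Genes around AP-1 were read from lists chosen for their known roles, with earlier results of these data known. The counts below are therefore descriptions, not independent tests. Of 27 other immediate early genes measured, 21 rose and 0 fell with 5-FU in Matrigel, and 17 rose and 1 fell in collagen. In untreated collagen 21 were higher and 0 lower than in Matrigel. Over all genes tested, 19.2% rose and 11.7% fell with 5-FU in Matrigel, and 18.6% rose and 16.7% fell in collagen. In untreated collagen 15.8% of all genes tested were higher and 15.4% lower. Plk2, a stress-induced polo-like kinase and p53 target, rose by 3.87 ± 0.20 in Matrigel and 2.11 ± 0.18 in collagen. The part of p53 in the 5-FU counts of this list was not tested. Nr4a1, an orphan nuclear receptor, rose by 2.89 ± 0.24 and 2.48 ± 0.23, and Ccn2, a secreted matricellular protein, by 4.26 ± 0.34 and 2.76 ± 0.30. The test of the difference called 9 of the 27 smaller in collagen and 1 larger, against 6.3% and 1.88% of all genes tested. Egr2, a relative of Egr1, had -3.09 ± 0.58 and Plk2 -1.76 ± 0.26. The median difference between matrices was -0.53 for this list, -0.31 for the 10 genes and -0.07 over all genes tested.

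Feedback genes that restrain the pathway moved in the same comparisons. Of 22 measured, 14 were higher and 0 lower in untreated collagen, where 15.8% of all genes tested were higher and 15.4% lower. With 5-FU in Matrigel 10 rose and 2 fell, against 19.2% and 11.7% of all genes. With 5-FU in collagen 10 rose and 3 fell, against 18.6% and 16.7%. Dusp6, the ERK phosphatase, was 1.85 ± 0.14 higher in untreated collagen and rose by 1.92 ± 0.14 with 5-FU in Matrigel and by 1.16 ± 0.14 in collagen. Dusp1, a phosphatase of the stress kinases, was 3.23 ± 0.35 higher in untreated collagen. Nab2, a repressor that binds Egr1, rose by 1.94 ± 0.22 with 5-FU in Matrigel, and its matrix difference was -1.28 ± 0.30 (edgeR adjusted p = 0.0196). By that test of the difference, 4 of the 22 were called lower and 1 higher, against 6.3% and 1.88% of all genes tested. The 1 called higher was Dusp7, at 1.76 ± 0.21 (edgeR adjusted p = 2.22e-04).

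Of 31 upstream kinases, Ras proteins and SRF factors measured, 8 rose and 2 fell with 5-FU in Matrigel, where 19.2% of all genes tested were called higher and 11.7% lower. With 5-FU in collagen 9 rose and 8 fell, against 18.6% and 16.7% of all genes, and in untreated collagen 6 were higher and 3 lower than in Matrigel, against 15.8% and 15.4%. Elk3, an SRF partner, was 3.81 ± 0.38 higher in untreated collagen, and Egfr rose with 5-FU by 1.03 ± 0.16 in Matrigel and 1.74 ± 0.16 in collagen. Of 22 related bZIP factors measured in these comparisons, 4 rose and 5 fell with 5-FU in Matrigel, 5 rose and 4 fell with 5-FU in collagen, and 6 were higher and 3 lower in untreated collagen. Of 23 measured in the others, 5 were higher and 0 lower under cWRNE, against 13.1% and 4.85% of all genes tested. In VIL against COL_cWRNE 3 were higher and 0 lower, against 5.68% and 1.96%. In VIL against untreated Matrigel 11 were higher and 4 lower, against 27% and 19.7%. Maff, a small Maf protein, was 1.85 ± 0.20 higher in untreated collagen, and Atf4, a factor of the integrated stress response, fell by 0.87 with 5-FU in collagen (SE 0.09).

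Of 23 known AP-1 targets measured, 15 were higher and 0 lower in untreated collagen, against 15.8% and 15.4% of all genes tested. With 5-FU in Matrigel 14 rose and 3 fell, against 19.2% and 11.7%. With 5-FU in collagen 13 rose and 2 fell, against 18.6% and 16.7%. Hbegf, an EGF receptor ligand, was 2.53 ± 0.16 higher in untreated collagen. Under cWRNE against ENRW, 18 of 25 targets were higher and 0 lower, among them Mmp7 by 2.09 ± 0.23 and Ccnd1 by 1.37 ± 0.19. There 13.1% of all genes tested were higher and 4.85% lower. The part of AP-1 in the changes of these targets, in any comparison, was not tested. In VIL against COL_cWRNE, 3 were higher and 1 lower, where 5.68% of all genes tested were higher and 1.96% lower. Mmp10, Mmp13 and Spp1 were the 3 higher, and these libraries also held the mesenchymal and immune markers given above; the part of those cells was not tested. Of 7 genes of the villus tip, 4 were higher and 0 lower in VIL than in COL_cWRNE, beside the same shares of all genes tested. Among the 4 were Krt20 by 3.07 ± 0.49 and Apoa4 by 4.02 ± 0.77, while Atf3 and Jun were lower there.

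**Figure D4:**
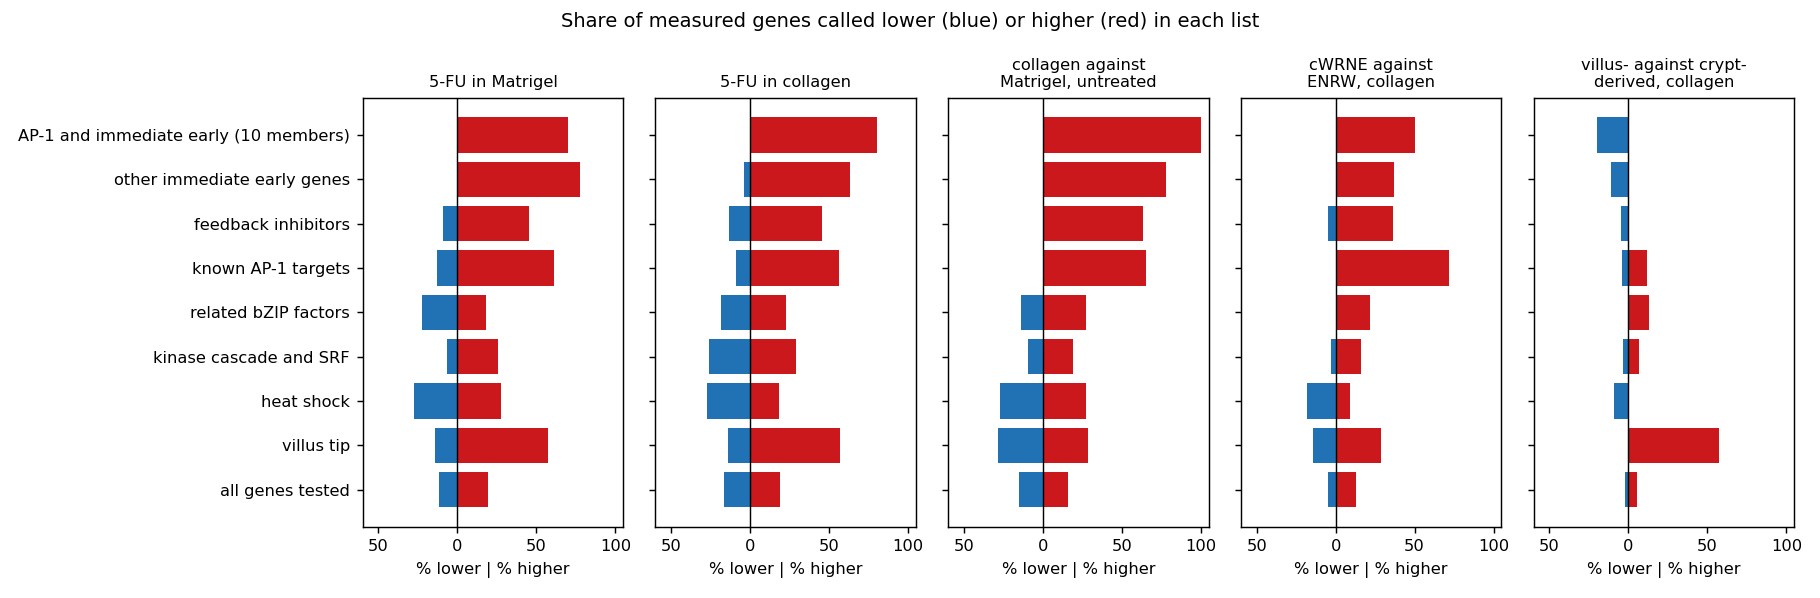
Share of the measured genes in each list that edgeR called higher (red, to the right) or lower (blue, to the left) in 5 comparisons, in percent, with all genes tested in the bottom row. The 10 genes reach 70% higher in Matrigel with 5-FU and 100% in untreated collagen, where all genes tested reach 19.2% and 15.8%.

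The genes whose pattern over the 18 libraries was most like each of these were found by the root mean square difference of centred log2 (CPM + 1), among 11150 genes with a mean of at least 5 CPM. Fosl1 was closest to Phlda3 (0.386), Glipr1 (0.497) and Zmat3 (0.512), of which Phlda3 and Zmat3 are textbook p53 targets. Junb was closest to Hbegf (0.233) and Ildr1 (0.237), Ier3 to Cnn2 (0.292) and Fos to Ptpn13 (0.429). Egr1 was closest to Mapk11 (0.576), Rab34 (0.598) and Hspa1b (0.608), Fosb to 1110028F11Rik (0.625) and Akap5 (0.669), and Atf3 to 1110028F11Rik (0.537) and Chrnb1 (0.551). Jund, Fosl2 and Jun were closest to Med31 (0.114), Pld2 (0.15) and Proser2 (0.195); this measure is smaller for genes that vary little. None of the 10 genes was among the 3 nearest of another.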

How the data were processed

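Reads came from SMART-Seq mRNA libraries tagmented with Nextera XT and sequenced on a NovaSeq X Plus, per the labels' protocols. The submitters' processing notes name bcl2fastq 2.20, DRAGEN and the build GRCm39/mm39; annotation version, counting rules and filters are not given in the sources used here. The authors deposited an estimated count and a TPM per gene and library; 67.8% of the nonzero counts were whole numbers. No genome of that build was used here.

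The 10 members and the gene lists were chosen with earlier results of these data known. Row identifiers were matched to symbols for 52081 of 55414 genes. Counts were rounded and fitted with edgeR 4.0.16 in R 4.3.3 (filterByExpr with a minimum count of 10, TMM, quasi-likelihood test, Benjamini-Hochberg over all genes tested, threshold 0.05). The 4 Matrigel and collagen groups with and without 5-FU shared a fit of 12 libraries, cWRNE against ENRW used all 18, and the villus comparisons used MG_Control, COL_cWRNE and VIL. The fitting script was tested on simulated counts with known changes. Intervals at 95% are the log2 fold change ± its SE times the t quantile on edgeR's total degrees of freedom (13.3, 16.2 and 9.6 in the 3 fits for the members). All members were named; from each list, per comparison, up to 4 called genes with the smallest adjusted p, and for each member the 3 genes most like it, could be named. Alternatives were DESeq2 1.42.0, limma 3.58.1 on log2 (TPM + 1), RLE or unscaled totals, other filters, other sets of libraries, the replicate block and leaving out each library; the use of VIL replicate 1 alone was chosen after seeing the data.

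Replicate numbers are shared by the groups, and the labels do not tie libraries to animals. Deviations from the group mean correlated between same-numbered libraries at 0.156 to 0.532 for 5-FU in Matrigel, 0.124 to 0.41 for 5-FU in collagen and 0.189 to 0.266 for cWRNE against ENRW. In these 3 the numbers therefore pair the libraries, and in the others not every pair exceeded 0.1. Replicate 2 held Y-linked counts with little or no Xist in every group, so the number also went with sex-linked RNA in every comparison. The reported fits have no block, and blocked values stand beside results whose call they change. P-values therefore measure the spread between these libraries. Some genes of the lists are not reported here.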

Additional observations from a re-analysis of the deposited data

Results flagged for a closer look

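For 3 genes the effect of 5-FU differed between collagen and Matrigel by edgeR's test of the difference itself, which is why they are listed. Egr1, the growth factor-induced zinc finger factor, had a collagen effect minus Matrigel effect of -2.54 on the log2 scale. Fosl1, which encodes Fra-1, had -2.26. Junb, the Jun relative, had -0.75, the value closest to the threshold of the 3. Of the 20 alternatives run, 20 called Egr1, 15 called Fosl1 and 6 called Junb, so only the Egr1 call stood in all of them.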

How the results depend on the processing

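Each comparison was refitted under 14 to 20 alternatives. Of 1257 refitted values of the members, 1155 kept their direction and side of the threshold, 29 passed newly, 47 no longer passed and 26 turned sign; the cause was not tested. The count of members called ranged over the fits that left out a library from 7 to 8 for each effect of 5-FU, 1 to 3 for the matrix difference, 1 to 5 for cWRNE against ENRW and 1 to 2 for villus- against crypt-derived cultures; it stayed at 10, 9 and 10 in the other comparisons. All 18 libraries in 1 fit gave 1 called member for the matrix difference and 4 for the villus comparison, DESeq2 gave 4 for the latter, the compared groups alone 1, and unscaled totals 3 for cWRNE against ENRW.

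Sign changes touched only values that had not passed. With limma on TPM, Fosl2 and Jun under 5-FU in Matrigel were -0.13 and 0.00. For the matrix difference, Fosl2 was 0.01 with RLE factors, 0.01 with DESeq2, 0.05 unfiltered, 0.14 on TPM and 0.04 in the 18-library fit, and Jund was 0.03 unfiltered, 0.25 on TPM and 0.03 in the 18-library fit; leaving out a library gave -0.10 to 0.03 for Fosl2, -0.11 to 0.02 for Jund and -0.09 to 1.72 for Fosb. For cWRNE against ENRW, Jund was -0.08 on unscaled totals and -0.01 to 0.18 with a library left out, and Egr1 -0.02 to 0.33. In the villus comparison Junb was 0.05 with RLE factors, 0.05 with DESeq2, 0.02 with at least 10 CPM in 3 libraries, 0.02 with the compared groups alone and -0.22 to 0.16 with a library left out; Fosl2 was -0.24 to 0.27 with a library left out and -0.29 with VIL replicate 1 alone.

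With the replicate number as a block, the counts of members called were 8 for each effect of 5-FU, 4 for the matrix difference, 10 and 9 for collagen against Matrigel untreated and with 5-FU, 6 for cWRNE against ENRW, and 3 and 10 for the villus comparisons. For the matrix difference 15 of 18 same-numbered pairs correlated over 0.1, the 6 within a matrix among them (0.124 to 0.532), and the block brought in Jun (-0.57, edgeR adjusted p = 0.0432); it also brought in Fosb in the villus comparison (-2.03, edgeR adjusted p = 0.0308); beside Jun in Matrigel and Fosl2 under cWRNE it changed no other call of a member.

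Over all genes, the matrix difference called 1360 genes, 2219 with DESeq2 and 521 in the 18-library fit. cWRNE against ENRW called 3184, and 1907 to 2669 with a library left out. The villus comparison in collagen called 1276, 2264 with DESeq2, 2480 in the 18-library fit, 847 with the stricter filter, 743 with the compared groups alone and 351 to 2050 with a library left out; villus against Matrigel called 7789, and 4637 with VIL replicate 1 alone. On unscaled totals the higher share of calls went from 62.2% to 44.6% (5-FU, Matrigel), 52.8% to 41.7% (5-FU, collagen), 23.0% to 33.0% for the matrix difference (33.7% with RLE factors), 47.8% to 60.4% for collagen against Matrigel with 5-FU and 73.0% to 45.2% for cWRNE against ENRW, with the median of all genes moving by up to 0.16; the member calls lost there were Egr1 with 5-FU in collagen, Junb for the matrix difference, and Fosl1 and Junb under cWRNE. On TPM the share was 28.2% (5-FU, Matrigel) and 72.8% and 80.5% for collagen against Matrigel untreated and with 5-FU.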
